A study of Sus scrofa with 9 samples.

Results

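The genes of the ATF4 amino acid response were followed in porcine valvular interstitial cells (PVICs), the stromal cells of the aortic valve leaflet. A list of 40 genes was chosen by symbol: ATF4 itself, the factors that act with it, enzymes of serine, glycine, asparagine and proline synthesis, mitochondrial one-carbon enzymes, amino acid transporters and tRNA synthetases. The table of gene counts has 19535 rows and held 39 of the 40, and all 39 had enough counts for testing. The remaining gene, SLC7A5, was present as a non-coding transcript and is described with the transporters. Counts of the 39 genes ran from 132 for ATF3 in a bFGF library to 48628 for ALDH1L2 in another library.

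The cells came from the aortic valves of wild type pigs aged 4 to 5 months and were kept in DMEM (control), in an osteogenic induction medium (OIM), or in the latter with basic fibroblast growth factor at 50 ng/mL (bFGF). OIM added 2 mmol/L phosphate, 50 µg/mL ascorbic acid and 0.1 µmol/L insulin, and the bFGF group carried these as well. The labels give 3 days of treatment and the methods 48 hours, and 3 libraries were sequenced per group. Nothing in the sources used here says that libraries of a group came from separate animals or cultures, so the p-values measure the spread between these libraries, which may be technical.

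ATF4 is a transcription factor that is made mainly under stress: when the initiation factor eIF2 is phosphorylated by the kinases GCN2, PERK, PKR or HRI, general translation falls while the ATF4 messenger is translated more. ATF4 then acts with C/EBP family partners on genes for amino acid synthesis, uptake and tRNA charging, and on stress factors such as CHOP. Because this control acts largely on translation, the amount of ATF4 messenger is not a measure of the amount of ATF4 protein, which was not measured in these libraries.

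Levels are given as CPM, the counts of a gene scaled to the same library size in all libraries, with the sizes corrected by the TMM method. A gene was called higher or lower when the quasi-likelihood test of edgeR, adjusted over all 13662 genes tested by the Benjamini-Hochberg method, gave an adjusted p of at most 0.05 and the log2 fold change was at least 0.5 in size. The gene counts of a library summed to 57075793 to 67371523 in the control and OIM groups and to 46773376 to 48270827 in the bFGF group. Markers of valve interstitial cells such as VIM, COL1A1 and DCN were abundant, and all 8 on the list summed to between 61074 and 69884 CPM in the control and OIM libraries and between 37135 and 37466 in bFGF, where 1 was called higher and 4 lower than in OIM. The 6 smooth muscle markers summed to 7294 to 10352 CPM in control and OIM and 845 to 954 in bFGF, all 6 called lower than in OIM. MYH11 of these was also called higher in OIM than in control, with a log2 fold change of 1.13 (edgeR adjusted p = 1.02e-05). The 10 proliferation markers summed to 363 to 531 and to 1516 to 1566 CPM, all 10 called higher. The 6 endothelial markers held 19.9 to 23.0 CPM in control and OIM and 32.6 to 35.6 in bFGF, with 4 called higher, and the 6 leukocyte markers held 12.8 to 16.2 and 8.25 to 8.75 CPM, with 1 called lower and CD3E at or under 3 counts in every library. OIM replicate 2 stood apart from its group: it differed from the other OIM libraries by a mean chi-square per gene of 19.0 and 19.1, against 5.87 between those. The part of these differences in the results on the ATF4 genes was not tested, and in RNA from whole cultures fewer cells of a type and less RNA per cell cannot be told apart.

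ATF4 and its partners bind a short element, the C/EBP-ATF response element, whose core reads TGATGNAA. This core was searched on both strands from 250 bases before to 50 bases after the annotated start of each gene in Sscrofa11.1. It was found in 7 of the 39 genes (17.95%), against 545 of 19534 promoters of all protein-coding genes (2.79%). Upstream of the start alone, it was found in 4 of the 39 (10.26%) and in 469 of all (2.40%), while SLC7A1, TARS and YARS held it only after the start. The upstream matches are shown because they lie in genes that went different ways under bFGF. Each is written 5′ to 3′ on the strand of its gene, read from the RefSeq genome sequence of Sscrofa11.1, with the matched core in capitals. All read TGATGCAA on one of the strands.
AARS, chr6:13321504-13321533, minus strand, 99 to 92 bases before the start: tttcttggccaTTGCATCAgccaatttagt
CHAC1, chr1:130363479-130363508, minus strand, 165 to 158 bases before the start: ctcccccgccgTTGCATCActcctcaaggt
SLC7A11, chr8:88608026-88608055, plus strand, 46 to 39 bases before the start: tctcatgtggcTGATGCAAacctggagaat
SLC7A11, chr8:88608045-88608074, plus strand, 27 to 20 bases before the start: acctggagaatTTGCATCAtcatccagccg
VLDLR, chr1:219210548-219210577, minus strand, 234 to 227 bases before the start: agcctcagtggTTGCATCAgtgctaactgc

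SLC7A11 holds the core a pair of times in opposite orientation within 27 bases. Of these 4 genes, SLC7A11 was called higher and VLDLR was called lower under bFGF than under OIM alone, and AARS and CHAC1 were not called. A match to these letters is a description of the sequence and not evidence of binding, and the other genes may hold the element outside this window.

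Between OIM and control, 0 of the 39 genes were called in either direction, by edgeR or by DESeq2. Over all genes tested, 2.35% were called in this comparison, 1.49% higher and 0.864% lower. The log2 fold changes of the 39 genes ran from -0.24 for ATF3 to 0.22 for PHGDH, with a median of -0.025 beside -0.002 for all genes. With an unadjusted p of at most 0.05 there were 9 (23.1%), beside 26.2% of all genes tested, and 6 (15.4%) passed the adjusted p alone, beside 13.6% of all genes, so both shares were near the background. All 3 OIM libraries lay above all 3 control libraries in 7 genes (17.9%) and below them in 7 (17.9%), against 14.5% and 14.2% of all genes tested.

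The 6 genes that passed the adjusted p without the fold limit moved by at most 0.22. PHGDH, the first enzyme of serine synthesis, had 49.9, 56.0 and 58.6 CPM in control and 64.0, 66.0 and 61.0 CPM in OIM, a log2 fold change of 0.22 (edgeR adjusted p = 0.0117). MTHFD2, a mitochondrial folate enzyme, went from 96.1, 96.7 and 93.7 CPM to 112, 108 and 107 CPM, a change of 0.19 (edgeR adjusted p = 0.00167). SLC7A1, a carrier of arginine and lysine, changed by 0.21 (edgeR adjusted p = 0.00124) and SHMT2 by 0.11 (edgeR adjusted p = 0.0321). In the other direction VLDLR changed by -0.16 (edgeR adjusted p = 0.0437) and ALDH1L2 by -0.098 (edgeR adjusted p = 0.0493). VLDLR had 390, 378 and 376 CPM in control and 347, 307 and 372 CPM in OIM, so the OIM libraries spread more widely than the group means differed. Its change was -0.083 without OIM replicate 2 and -0.22 without OIM replicate 3. MTHFD2 and SLC7A1 kept an adjusted p of at most 0.05 in each of the 9 fits that left out 1 library, and the other 4 genes did not.

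Between bFGF and OIM, 13 of the 39 genes were called (33.3%), 5 higher and 8 lower. Over all genes tested 36.2% were called in this comparison, 17.7% higher and 18.4% lower, so the share called among these genes was near that of all genes and is not in itself a result about them. The called genes were spread over all roles and went both ways, and their changes lay between -1.97 and 0.92. The adjusted p alone was passed by 32 genes (82.1%), 12 higher and 20 lower, and by 67.4% of all genes. The median log2 fold change was -0.15, beside -0.003 for all genes tested. With library totals in place of TMM, 6 of the 39 genes were called higher and 4 lower, beside 27.3% higher and 12.4% lower of all genes tested, and the median was 0.067 beside 0.22 for all genes. That scaling raises the log2 fold change of every gene by about the same amount (0.22 for each of the 39), so the sign of small changes and the calls near the fold limit depend on it. All bFGF libraries lay above all OIM libraries in 13 genes (33.3%) and below them in 21 (53.8%), against 36.3% and 35.8% of all genes.

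**Figure D1:**
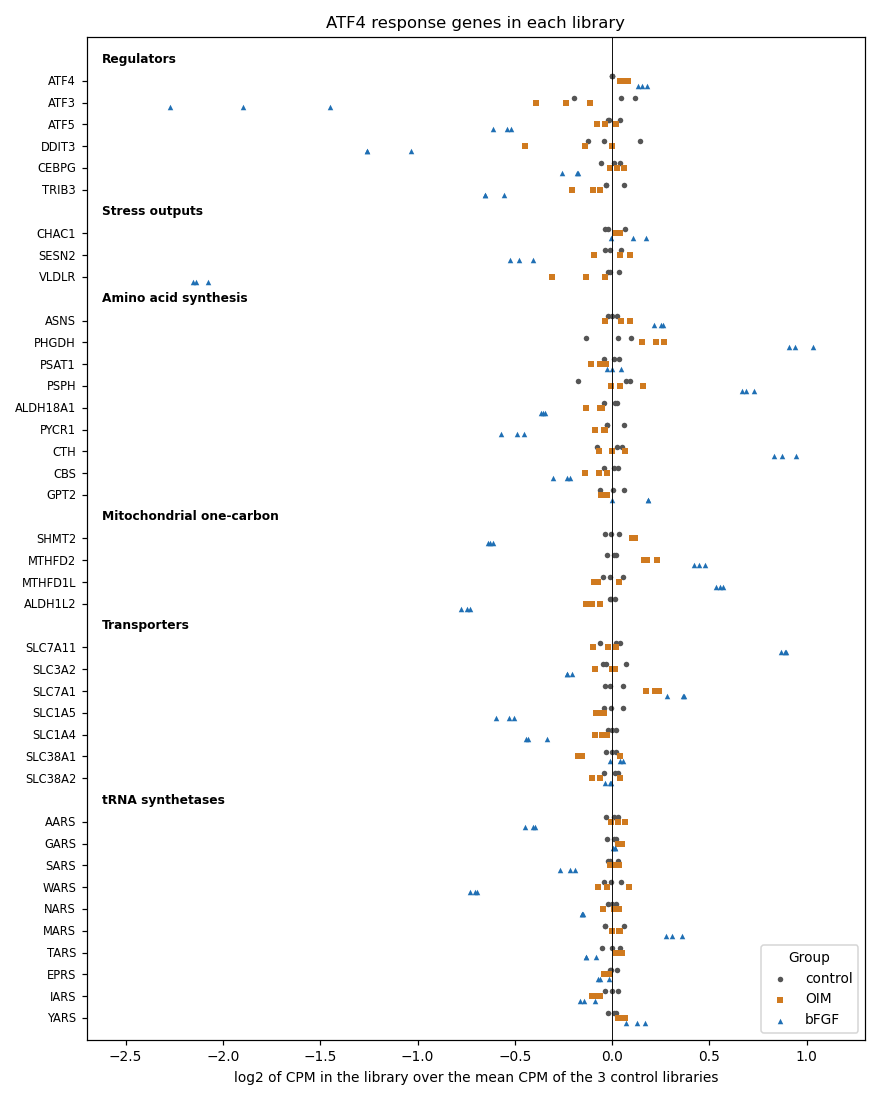
Level of each of the 39 genes in each of the 9 libraries, as the log2 of CPM over the mean CPM of the 3 control libraries (x axis), with genes grouped by role (y axis). Circles are control, squares OIM and triangles bFGF. The squares stay near 0 while the triangles reach to both sides, furthest left for ATF3 and VLDLR and furthest right for PHGDH, CTH and SLC7A11.

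The regulators were headed by ATF4 itself, which was not called. ATF4 (chromosome 5, 8742964 to 8745752) had 468, 468 and 467 CPM in the control libraries, 481, 486 and 495 CPM in OIM and 521, 514 and 529 CPM in bFGF. Every bFGF library lay above every OIM library and these above every control library, in steps that were small beside the fold limit. The log2 fold change was 0.059 in OIM against control (standard error 0.031, edgeR adjusted p = 0.247) and 0.097 in bFGF against OIM (standard error 0.031, edgeR adjusted p = 0.00996), and neither was called. The paper names ATF4 among the genes it found significantly upregulated in OIM. Here, at the thresholds of its methods, ATF4 was not called higher in OIM than in control by edgeR or by DESeq2. In bFGF against OIM no call was made either. The change in bFGF against OIM was 0.32 with library totals in place of TMM, also under the limit.

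Of the other 5 regulators, 4 were called lower in bFGF than in OIM. This was 66.7% of the 6 regulators with ATF4 counted, beside 18.4% of all genes tested. ATF3, a stress-induced repressor of the same family, had 12.9, 12.3 and 10.4 CPM in control, 9.06, 11.0 and 10.1 CPM in OIM and 2.46, 4.36 and 3.19 CPM in bFGF. Its bFGF libraries lay far below all others, a log2 fold change of -1.59 (standard error 0.15, edgeR adjusted p = 1.61e-08). DDIT3, which encodes the pro-apoptotic factor CHOP, had 24.9, 23.5 and 28.3 CPM in control, 25.6, 18.8 and 23.2 CPM in OIM and 10.7, 12.5 and 10.7 CPM in bFGF. The OIM libraries overlapped the control libraries, while every bFGF library lay below both groups (log2 fold change -0.99, standard error 0.10, edgeR adjusted p = 4.93e-08). The last 69 bases of DDIT3 and of its neighbour MARS overlap on opposite strands, and MARS changed by 0.29 in this comparison. ATF5, a family member whose translation is controlled like that of ATF4, had 65.0, 67.5 and 64.7 CPM in control, 62.2, 66.7 and 64.0 CPM in OIM and 45.1, 43.0 and 45.8 CPM in bFGF. Its change was -0.53 (standard error 0.047, edgeR adjusted p = 3.93e-09) and without OIM replicate 2 it was -0.48, under the fold limit, as was the -0.31 that library totals gave in place of TMM.

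TRIB3, a pseudokinase that restrains ATF4 and CHOP, stood at the fold limit. It had 64.1, 59.5 and 65.7 CPM in OIM and 46.6, 43.6 and 43.6 CPM in bFGF, a log2 fold change of -0.50 (standard error 0.051, edgeR adjusted p = 3.04e-08). The groups did not overlap, but it was called in only 5 of the 9 fits that each left out 1 library, and with DESeq2 the same change fell just short of the limit. With library totals in place of TMM it was -0.28 and not called. CEBPG, the C/EBP partner of ATF4, changed by -0.23 (edgeR adjusted p = 0.000179) and was not called. With library totals its change was -0.006 (edgeR adjusted p = 0.914). In bFGF against control the 4 regulators called lower above were again called lower, beside 20.0% of all genes tested. Their changes were -1.83 for ATF3, -1.18 for DDIT3, -0.62 for TRIB3 and -0.56 for ATF5. With library totals in place of TMM, TRIB3 at -0.40 and ATF5 at -0.33 were short of the limit there.

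**Figure D2:**
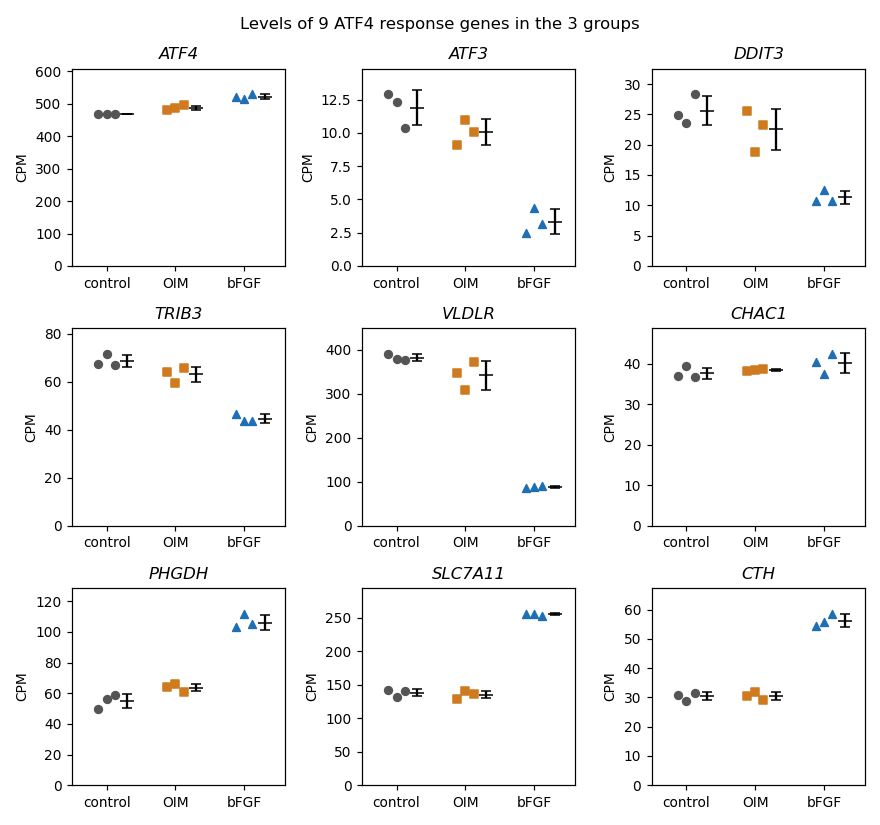
CPM of 9 of the genes (y axis, from 0) in the control, OIM and bFGF groups (x axis), with 1 point per library and the mean and SD of the 3 libraries beside them. On this TMM scale ATF4 and CHAC1 stay nearly level, ATF3, DDIT3, TRIB3 and VLDLR are lowest in bFGF, and PHGDH, SLC7A11 and CTH are highest there.

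The stress outputs did not move together. VLDLR, a lipoprotein receptor that ATF4 can induce, had 390, 378 and 376 CPM in control, 347, 307 and 372 CPM in OIM and 85.6, 86.6 and 90.2 CPM in bFGF. This was the greatest change among the 39 genes, a log2 fold change of -1.97 or 3.91-fold lower than in OIM (standard error 0.053, edgeR adjusted p = 5.32e-17). CHAC1, which degrades glutathione and is a well-known target of ATF4, had 38.1, 38.5 and 38.6 CPM in OIM and 40.5, 37.5 and 42.4 CPM in bFGF, so the groups overlapped (log2 fold change 0.062, standard error 0.056, edgeR adjusted p = 0.338). With library totals in place of TMM its change was 0.28 (edgeR adjusted p = 0.000169), under the fold limit. SESN2, a leucine sensor that restrains mTORC1, changed by -0.48 (standard error 0.056, edgeR adjusted p = 2.01e-07), short of the fold limit. It was called lower, at -0.52, without OIM replicate 2 or without bFGF replicate 2.

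Among the 9 enzymes of amino acid synthesis, bFGF had 3 (33.3%) called higher and 0 called lower than OIM. Of all genes tested, 17.7% were called higher and 18.4% lower in this comparison. Another 3 of the 9 enzymes passed the adjusted p in the lower direction without a call. The median log2 fold change of the 9 was 0.17, or 0.39 with library totals. CTH, which makes cysteine from cystathionine, had 31.0, 28.9 and 31.6 CPM in control, 30.5, 31.9 and 29.1 CPM in OIM and 54.3, 55.9 and 58.7 CPM in bFGF. The bFGF libraries stood apart from both other groups, which overlapped (log2 fold change 0.88, standard error 0.056, edgeR adjusted p = 2.51e-11). PHGDH reached 103, 112 and 105 CPM in bFGF, above the 61.0 to 66.0 CPM of OIM, a log2 fold change of 0.74 (standard error 0.054, edgeR adjusted p = 2.19e-10). PSPH, the last enzyme of serine synthesis, had 30.6, 25.4 and 30.1 CPM in control, 29.5, 32.0 and 28.6 CPM in OIM and 46.3, 45.6 and 47.6 CPM in bFGF (log2 fold change 0.63, standard error 0.068, edgeR adjusted p = 7.30e-08).

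PSAT1, the enzyme between PHGDH and PSPH in the serine pathway, was not called: OIM libraries averaged 346 ± 9.08 CPM and bFGF libraries 365 ± 8.69 CPM (SD, n = 3). Its log2 fold change was 0.075 (standard error 0.035, edgeR adjusted p = 0.0674), and 0.30 (edgeR adjusted p = 6.70e-07) with library totals in place of TMM. Per kb of exon it was the most abundant of the 3 enzymes in every group, at 157 ± 4.11 CPM per kb in OIM beside 33.4 ± 1.32 for PHGDH and 21.1 ± 1.23 for PSPH (SD, n = 3). ASNS, which makes asparagine and is a classical target of ATF4, had 219, 207 and 226 CPM in OIM and 252, 246 and 254 CPM in bFGF, without overlap, but its change of 0.21 was under the fold limit (edgeR adjusted p = 5.62e-05). ALDH18A1 and PYCR1, enzymes of proline synthesis, changed by -0.27 and -0.45, and CBS, the enzyme before CTH, by -0.17. With library totals in place of TMM these changes were -0.049, -0.227 and 0.047. GPT2, a mitochondrial alanine transaminase, changed by 0.17. PYCR1 was called lower in bFGF against control at -0.50, and in 6 of the 9 fits that left out 1 library.

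The 4 mitochondrial one-carbon enzymes went in opposite directions under bFGF. These enzymes handle the one-carbon units that mitochondria draw from serine through folate. SHMT2, which splits serine into glycine and a one-carbon unit, had 251, 258 and 246 CPM in control, 270, 272 and 273 CPM in OIM and 165, 163 and 162 CPM in bFGF. It was thus highest in OIM and lowest in bFGF with no overlap between groups, with a change of -0.73 between bFGF and OIM (standard error 0.034, edgeR adjusted p = 1.69e-13). It overlaps NXPH4 on the same strand by 835 bases, and reads there cannot be told apart. ALDH1L2, which oxidizes formyl-folate in mitochondria, had 809, 794 and 799 CPM in control, 731, 746 and 768 CPM in OIM and 478, 483 and 467 CPM in bFGF (log2 fold change -0.65, standard error 0.032, edgeR adjusted p = 5.17e-13). It was below OIM in every bFGF library, and with library totals in place of TMM its change of -0.43 was short of the limit.

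In contrast, MTHFD1L, which releases formate, had 69.1, 66.1 and 64.3 CPM in control, 63.2, 68.1 and 62.4 CPM in OIM and 97.6, 96.4 and 98.8 CPM in bFGF. This was a log2 fold change of 0.60 (standard error 0.045, edgeR adjusted p = 3.23e-10), with no overlap between bFGF and the other groups. MTHFD2, the step between SHMT2 and MTHFD1L, reached 128, 133 and 130 CPM in bFGF and changed by 0.26 against OIM (edgeR adjusted p = 4.70e-06), under the limit. Against control its change was 0.45, also not called.

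**Figure D3:**
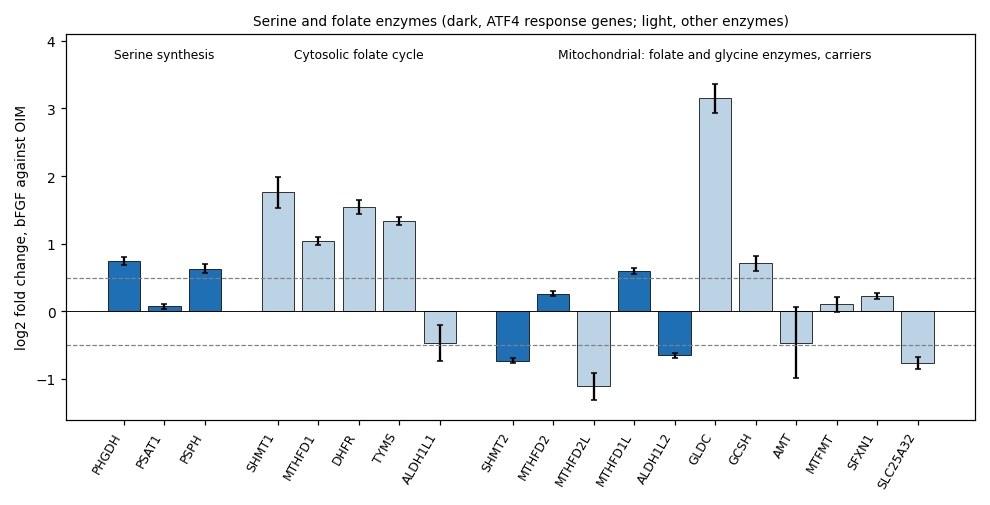
Log2 fold change in bFGF against OIM (y axis, bars from 0 with standard errors) of the serine, cytosolic folate and mitochondrial one-carbon genes (x axis); dark bars are ATF4 response genes, light bars 12 of the 13 other genes of the route, and dashed lines mark the fold limit. SHMT2 and ALDH1L2 lie below the lower line while MTHFD1L, PHGDH and PSPH lie above the upper one, and GLDC at 3.15 is the tallest bar.

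The rest of the serine and folate route was read from a list of 13 further genes. Of these, 6 (46.2%) were called higher with bFGF than with OIM alone and 3 (23.1%) lower, beside 17.7% and 18.4% of all genes tested. Their median log2 fold change was 0.23, or 0.45 with library totals. SHMT1, the cytosolic counterpart of SHMT2, rose while SHMT2 fell: it had 1.24, 1.04 and 1.03 CPM in OIM and 3.64, 4.15 and 3.42 CPM in bFGF (log2 fold change 1.76, standard error 0.23, edgeR adjusted p = 1.16e-06). GLDC, the glycine-cleaving enzyme of mitochondria, had 0.660, 0.281 and 0.268 CPM in control, 0.941, 1.09 and 0.998 CPM in OIM and 9.40, 8.07 and 9.50 CPM in bFGF, a stepwise order without overlap (log2 fold change 3.15 in bFGF against OIM, standard error 0.21, edgeR adjusted p = 5.58e-11). MTHFD2L, a close relative of MTHFD2, was called lower, with a change of -1.11. GLDC and SHMT1 were also the only 2 genes of this list called in OIM against control (15.4%, beside 2.35% of all genes tested). Both were higher, with changes of 1.35 (edgeR adjusted p = 0.00229) and 1.04 (edgeR adjusted p = 0.0107), SHMT1 in 8 of the 9 fits that left out 1 library. SHMT1 had 0.385, 0.544 and 0.670 CPM in control, so the changes of both genes against control rest on low counts.

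Of the 7 transporters in the gene table, 1 (14.3%) was called in bFGF against OIM, beside 36.2% of all genes tested. SLC7A11, the cystine carrier of system xc-, had 142, 132 and 140 CPM in control, 129, 140 and 136 CPM in OIM and 256, 255 and 252 CPM in bFGF. The control and OIM libraries overlapped and the bFGF libraries lay at nearly the same, higher level, a log2 fold change of 0.92 or 1.89-fold (standard error 0.040, edgeR adjusted p = 6.35e-14). SLC7A11 has a pair of the ATF4 cores shown above. SLC3A2, the heavy chain that SLC7A11 and SLC7A5 both need at the cell surface, did not rise with it: it had 183, 170 and 181 CPM in OIM and 154, 157 and 154 CPM in bFGF, a change of -0.20 (edgeR adjusted p = 0.000233) that was not called and was 0.024 with library totals in place of TMM.

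SLC7A5, the light chain that carries leucine and other large neutral amino acids, is annotated in the reference used here only as a non-coding transcript (chromosome 6, 1545940 to 1574298), and its estimated counts were tested with the other non-coding transcripts. It had 100.4, 105.7 and 107.6 CPM in control, 122.7, 126.5 and 121.4 CPM in OIM and 172.8, 172.7 and 176.5 CPM in bFGF. The 3 groups stood in order without overlap. The log2 fold change was 0.24 in OIM against control (standard error 0.0546, edgeR adjusted p = 0.411), 0.49 in bFGF against OIM (standard error 0.0547, edgeR adjusted p = 0.000823), just under the fold limit, and 0.73 in bFGF against control (standard error 0.0549, edgeR adjusted p = 9.57e-05), where it was called higher. Of the 2220 non-coding transcripts tested, 0.0450%, 9.41% and 12.4% were called in these comparisons. SLC7A5 was fitted with the TMM library sizes alone, so whether its calls depend on the scaling was not tested.

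The other transporters changed less. SLC1A5, a glutamine carrier, changed by -0.48 and SLC1A4, a carrier of alanine, serine and cysteine, by -0.35, and both had all bFGF libraries below all OIM libraries without being called. SLC1A5 was called lower at -0.50 without bFGF replicate 3, and in bFGF against control at -0.55. SLC7A1, SLC38A1 and SLC38A2, the last 2 carriers of glutamine and other small neutral amino acids, changed by 0.13, 0.12 and 0.021. In a list of 20 further amino acid transporters, 16 were tested. With bFGF, 0 were called higher than with OIM alone and 6 (37.5%) lower, beside 17.7% and 18.4% of all genes tested. Their median was -0.37, or -0.15 with library totals in place of TMM. The greatest changes were in the glutamate carriers SLC1A3, at -1.27, and SLC1A1, at -1.18.

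The 10 tRNA synthetases, which join amino acids to their tRNAs in the cytosol, included 1 gene called in bFGF against OIM. This was 10.0%, beside 36.2% of all genes tested. WARS, for tryptophan, had 348, 360 and 339 CPM in control, 343, 332 and 370 CPM in OIM and 210, 216 and 214 CPM in bFGF, a log2 fold change of -0.71 (standard error 0.040, edgeR adjusted p = 4.40e-12). Its bFGF libraries lay below all others, and with library totals the change of -0.49 was short of the limit. AARS, whose promoter holds the ATF4 core, changed by -0.45 and SARS by -0.24 (-0.225 and -0.015 with library totals), while MARS changed by 0.29 and YARS by 0.074. NARS and TARS changed by -0.15 and -0.16, and IARS, GARS and EPRS by -0.050, -0.026 and -0.020. The last 5 named here had positive changes with library totals in place of TMM, so no direction is given for them.

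Synthetases outside the ATF4 list gave other values. Of 10 further cytosolic synthetases, 2 (20.0%) were called higher with bFGF than with OIM alone, VARS at 0.60 and FARSA at 0.57, and 0 lower. Of all genes tested, 17.7% were called higher and 18.4% lower, so the share called higher was near that of all genes. The median of these 10 was 0.31 beside -0.10 for the 10 on the ATF4 list. These medians became 0.53 and 0.12 with library totals in place of TMM. Of 16 mitochondrial synthetases, 8 (50.0%) were called higher, beside the 17.7% of all genes, and 0 lower. Their median was 0.47, or 0.69 with library totals. AARS2 had 4.96, 6.08 and 4.43 CPM in OIM and 14.0, 15.2 and 14.7 CPM in bFGF (log2 fold change 1.50, standard error 0.13, edgeR adjusted p = 4.10e-09), while its cytosolic counterpart AARS changed by -0.45. The difference between the lists was not tested.

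**Figure D4:**
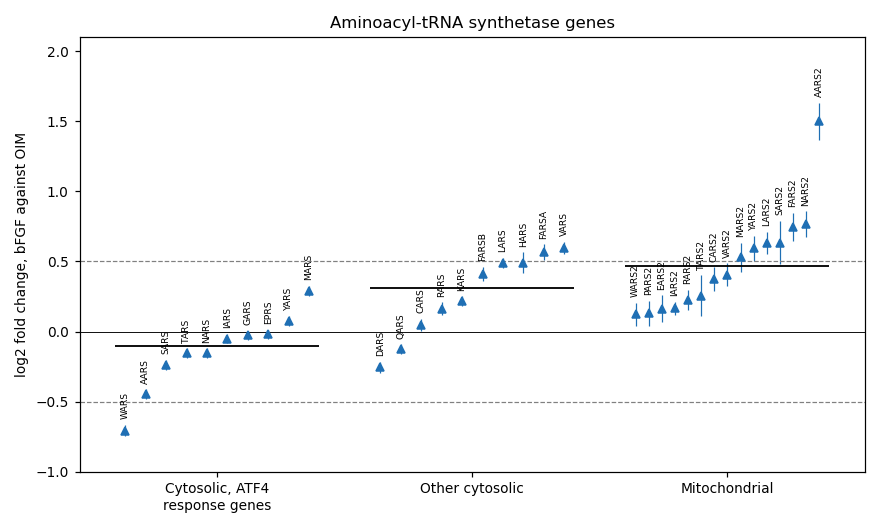
Log2 fold change in bFGF against OIM (y axis, triangles with standard errors) of tRNA synthetase genes, in 3 groups (x axis): the 10 cytosolic ATF4 response genes, 10 other cytosolic ones and 15 of the 16 mitochondrial ones tested. Horizontal bars are medians of all genes tested and dashed lines the fold limit. The mitochondrial genes shown are all above 0, and WARS alone lies below the lower line.

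In bFGF against control, which shares its bFGF libraries with the comparison above and so is not independent of it, 15 of the 39 genes were called (38.5%), 5 higher and 10 lower. Of all genes tested, 39.0% were called, 18.9% higher and 20.0% lower. The adjusted p alone was passed by 32 of the 39 (82.1%) and by 70.2% of all genes. The genes called higher were PHGDH at 0.96, SLC7A11 and CTH both at 0.88, PSPH at 0.70 and MTHFD1L at 0.55. Those called lower were the 8 of bFGF against OIM with PYCR1 and SLC1A5 added. VLDLR had a log2 fold change of -2.12, ALDH1L2 of -0.75, WARS of -0.71 and SHMT2 of -0.62. With library totals in place of TMM, 8 genes were called higher and 4 lower, beside 28.8% and 13.5% of all genes. ATF3, DDIT3, VLDLR and ALDH1L2 were still called lower under that scaling, while SHMT2 (-0.40), WARS (-0.49), SLC1A5 (-0.32), PYCR1 (-0.28), TRIB3 and ATF5 were not. MTHFD2 (0.67), SLC7A1 (0.56) and MARS (0.54) were called higher there in addition to the 5 genes named.

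**Figure D5:**
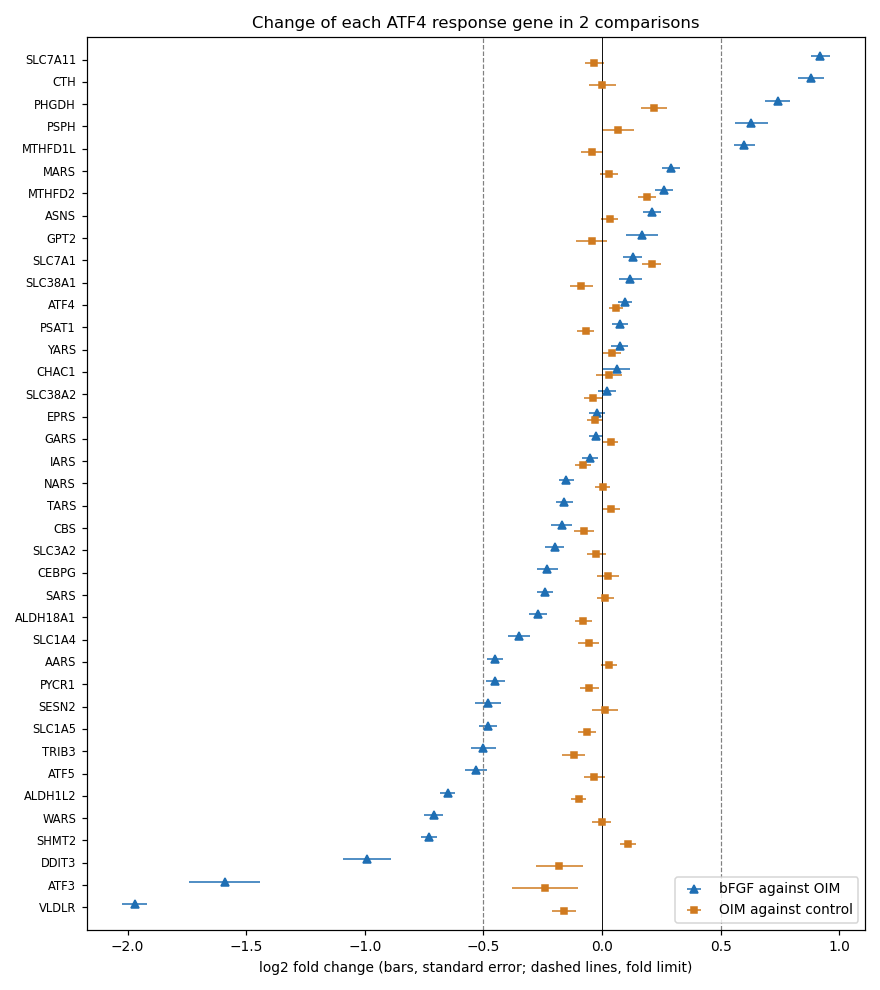
Log2 fold change (x axis, with standard errors) of each of the 39 genes (y axis, ordered by bFGF against OIM). Triangles are bFGF against OIM, squares OIM against control, and dashed lines the fold limit of 0.5 in either direction. The squares all lie between the dashed lines, while 8 triangles lie at or beyond the lower line and 5 beyond the upper one.

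The order of the levels, compared per kb of exon, was led by ATF4 in each group, at 221 ± 0.463 CPM per kb in control, 230 ± 3.15 in OIM and 246 ± 3.58 in bFGF (SD, n = 3). GARS followed at 200 ± 3.25, PSAT1 at 164 ± 4.30 and AARS at 154 ± 3.37 CPM per kb in control. GPT2 at 5.49 ± 0.224 and ATF3 at 5.37 ± 0.593 CPM per kb were the lowest in control and did not differ beyond their spread. In bFGF, ATF3 at 1.51 ± 0.434 CPM per kb was the lowest of the 39. VLDLR moved furthest down the order, from place 9 in control at 98.6 ± 2.02 CPM per kb to place 31 in bFGF at 22.6 ± 0.616. Differences in mapping between genes were not corrected.

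Upstream of ATF4, a list of 11 genes for eIF2 kinases, subunits of eIF2 and eIF2B and eIF2 phosphatase subunits was read in the same way. With bFGF, 1 (9.09%) was called higher than with OIM alone and 2 (18.2%) lower. Of all genes tested, 17.7% were called higher and 18.4% lower, so the share called lower was near that of all genes. The median of the 11 was 0.068, or 0.29 with library totals in place of TMM. EIF2AK4, which encodes the amino acid sensor GCN2, had 61.1, 63.0 and 60.6 CPM in OIM and 114, 116 and 118 CPM in bFGF (log2 fold change 0.91, standard error 0.047, edgeR adjusted p = 9.70e-13). EIF2AK3, which encodes PERK, the kinase of endoplasmic reticulum stress, had 102, 98.2 and 97.6 CPM in OIM and 67.0, 67.4 and 64.8 CPM in bFGF (log2 fold change -0.58, standard error 0.041, edgeR adjusted p = 1.07e-10). These kinases of the same factor thus moved in opposite directions. PPP1R15A, the inducible phosphatase subunit GADD34, which removes the phosphate from eIF2, changed by -1.01 (standard error 0.063, edgeR adjusted p = 2.03e-11). Phosphorylation was not measured.

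Of 17 other genes known to respond to ATF4, 2 (11.8%) were called higher with bFGF than with OIM alone and 9 (52.9%) lower. Of all genes tested, 17.7% were called higher and 18.4% lower in this comparison. The median of the 17 genes was -0.52, or -0.30 with library totals. GDF15, a stress-induced secreted factor, had 9.80, 12.3 and 10.8 CPM in OIM and 37.5, 37.4 and 33.9 CPM in bFGF, a log2 fold change of 1.72 (standard error 0.095, edgeR adjusted p = 2.49e-12). PCK2, the mitochondrial enzyme that makes phosphoenolpyruvate, changed by 0.62. DDIT4, an inhibitor of mTORC1, and KLHL24 were lower, with changes of -1.40 and -1.30. In the list of 13 genes of the other branches of the unfolded protein response, 0 were called higher and 4 (30.8%) lower, beside these shares of all genes. The median was -0.46, or -0.24 with library totals, and the greatest changes were in DNAJB9 at -1.27 and HERPUD1 at -0.88. Of 10 genes of amino acid sensing by mTORC1, 0 were called higher and 6 lower, beside 17.7% and 18.4% of all genes tested. The median of the 10 was -0.57, or -0.35 with library totals. The genes called lower were led by SESN1 at -1.86 and CASTOR1 at -0.98.

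Of 16 other enzymes of amino acid and glutathione metabolism, 3 (18.8%) were called higher in bFGF than in OIM and 1 (6.25%) lower. Of all genes tested, 17.7% were called higher and 18.4% lower, so the share called higher was near that of all genes. The median of the 16 was 0.096, or 0.32 with library totals. AHCY, which clears S-adenosylhomocysteine, had 32.5, 47.3 and 33.5 CPM in OIM and 134, 131 and 132 CPM in bFGF (log2 fold change 1.80, standard error 0.090, edgeR adjusted p = 6.06e-13), with OIM replicate 2 above the other OIM libraries. GCLC, which makes the first step of glutathione synthesis from cysteine, changed by 1.19, and ASL, an enzyme of arginine synthesis, by -1.20. Across the lists of further pathway genes read here, 2 genes, GLDC and SHMT1, were called between OIM and control, both higher in OIM. Of all genes tested, 2.35% were called in that comparison.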

How the data were processed

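Each of the 3 treatments had 3 sequenced libraries, assigned to groups and replicates by the titles and treatments in the labels. The authors deposited 1 table with no normalization, whose rows are 19535 genes (whole-number counts), 9888 non-coding transcripts (estimated counts, 44.6% of them fractional) and 6179 circRNAs (whole numbers). The sources name different tools: the submitters' processing notes give Trimmomatic, HISAT2 and StringTie with Sscrofa11.1 and a stranded total RNA kit, and the methods give Cutadapt and STAR on susScr11 and a poly-A kit. The counting program and its use of strand are not given in the sources used here, so overlapping genes may share reads; 10 of the 39 genes overlap another annotated gene. Another 19 columns have no name or value, and were not used; 25 gene symbols had been altered to dates, and these rows are not named.

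Counts were filtered by filterByExpr, scaled by TMM and fitted in edgeR 4.0.16 (R 4.3.3) with 1 model of 3 groups, which was first tested on simulated data. The simulation altered genes in the OIM group only, so it did not cover changes as broad as those with bFGF. The p-values were adjusted by the Benjamini-Hochberg method over 13662 genes. Non-coding transcripts were fitted separately, on estimated values rounded to the nearest whole number, with the library sizes of the genes. The standard error is the size of the log2 fold change over the square root of F. The common biological coefficient of variation was 0.0602. Replicates differed beyond sampling noise in each pair (mean chi-square per gene 4.69 to 19.1), and each was used as a library of its own.

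The members, the other gene lists and the tests were chosen with earlier results of these data known. Every member is named; full values were given for at most 3 called members per direction and role, by size of change, and other lists name at most 2 called genes per direction. TRIB3, ATF4, ASNS, SLC7A1, MTHFD2, CHAC1 and SLC3A2 were given in more detail after their values were seen. Results for 2 genes within that rule are left out here. NIBAN1 was matched by its older symbol FAM129A, and EIF2B4, HARS2, MTHFS and PRODH had no row. Alternatives were DESeq2 1.42.0, its size factors, library totals, other filters, fits on 2 groups, a replicate block, other limits on the fold change, and omission of single libraries.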

Additional observations from a re-analysis of the deposited data

How the results depend on the processing

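For 60 results on single genes (the 39 genes in bFGF against OIM and the rest in the other comparisons) under 18 alternatives each, 996 kept their direction and side of the threshold, 29 gained and 46 lost a call, and 9 changed sign. Dropping the fold limit gave 25 of the gains, and a fold limit of 1 gave 23 of the losses. Library totals gave 10 of the losses and 7 of the sign changes. Without a fold limit, 4 of the 39 genes were higher and 2 lower in OIM than in control, 12 higher and 20 lower in bFGF against OIM, and 11 and 21 in bFGF against control, beside 13.6%, 67.4% and 70.2% of all genes in either direction. With a fold limit of 1 these were 0 and 2 (bFGF against OIM) and 0 and 3 (bFGF against control), beside 8.90% and 9.11%, and 9.80% and 10.4%, of all genes. With library totals as the only scaling, bFGF against OIM had 6 higher and 4 lower calls (27.3% and 12.4% of all genes), with a median log2 fold change of 0.067, and bFGF against control had 8 and 4 (28.8% and 13.5%), with a median of 0.092. The median of all genes moved under that scaling to 0.219 and 0.208. The genes that changed sign there, in bFGF against OIM, were CBS (0.047), SLC3A2 (0.024), GARS (0.196), NARS (0.067), TARS (0.067), EPRS (0.202) and IARS (0.172), and ATF5 (-0.306), TRIB3 (-0.278), ALDH1L2 (-0.430) and WARS (-0.486) lost their call while MARS (0.511) gained one. In bFGF against control ATF5 (-0.334), TRIB3 (-0.397), PYCR1 (-0.277), SHMT2 (-0.396), SLC1A5 (-0.323) and WARS (-0.485) lost theirs, and MTHFD2 (0.674), SLC7A1 (0.563) and MARS (0.543) gained one. Leaving out 1 library at a time moved the median from -0.031 to -0.002 in OIM against control, from -0.164 to -0.130 in bFGF against OIM, where without OIM replicate 2 it was -0.130, and from -0.152 to -0.112 in bFGF against control. It moved SLC38A2 from -0.012 to 0.083 and EPRS from -0.038 to 0.008, and left 7 to 8 genes called lower and 5 higher in bFGF against OIM. TRIB3 lost its call with DESeq2 size factors (-0.499), and PYCR1 in bFGF against control with DESeq2 (-0.494). Beyond the alternatives' own construction, the cause was not tested. Libraries with the same replicate number did not deviate together (correlations from -0.032 to 0.004, beside -0.026 to 0.053 for different numbers). With 3 libraries per group this cannot show whether a number marks a shared culture or preparation, which the sources used here do not say. With the replicate block, bFGF against OIM had 5 genes called higher and 8 lower, 0 and 0 in OIM against control and 5 and 10 in bFGF against control, as without it. Among the 39 genes, depth limits ATF3 most, with at least 132 counts per library.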

Other observations

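The deposited table also counts circular RNAs, which form when an exon end is joined back to an earlier exon start. Among them, 20 lie inside 12 of the 39 genes on the strand of the gene, by their coordinates. Only 1 had a count in every library: the circRNA from 6556534 to 6560872 on chromosome 11, inside SLC7A1, had 16, 18 and 23 counts in control, 16, 14 and 9 in OIM and 6, 16 and 11 in bFGF, so the groups overlapped. The next most abundant lies inside IARS on chromosome 3 from 42001403 to 42012685, with 10, 6 and 10 counts in control, 3, 17 and 7 in OIM and 6, 4 and 0 in bFGF. Of the 20, 15 were above 0 in 3 libraries or fewer. No test was made at these counts.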
